A study of Mus musculus with 2 samples.

Results

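Mouse lymphocytes kill with a set of granule proteins, and 10 of their genes are described here: perforin (Prf1) and the granzymes Gzma, Gzmb, Gzmc, Gzmd, Gzme, Gzmf, Gzmg, Gzmk and Gzmm. They were chosen by name and not by a measured value, though earlier results of these data were known. They are 10 of the 32285 mouse genes in the deposited matrices. All 10 had unique molecular identifiers (UMIs, each counted once per captured RNA molecule) in both libraries. The libraries came from mouse brains that carried implanted GL261 cells, a glioma line, and were made from tumour and surrounding tissue taken on day 24 with an enzyme kit for neural tissue. One was labelled C57BlL6 WT (called WT label here) and the other Cacna1H-/- (KO label), by its label a knockout of the gene of the T-type calcium channel Cav3.2. Each group is a single library, so no difference has a replicate check, no test was possible, and every interval covers counting error only. The sources used here do not state how many animals stand behind either library.

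Perforin opens pores in the membrane of a target cell, and the granzymes are serine proteases that enter and cleave proteins inside. Granzyme B cuts after aspartate and starts the caspase cascade, granzymes A and K cut after basic residues, and granzyme M after methionine or leucine. Natural killer (NK) cells and CD8 T cells are the main carriers. Mice have an expanded group, Gzmc to Gzmg, beside Gzmb on chromosome 14, known from strongly activated killer cells.

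In the GRCm38 annotation of GENCODE M21, Gzme, Gzmd, Gzmg, Gzmn, Gzmf, Gzmc and Gzmb lay in this order on the minus strand of chromosome 14, between 56117626 and 56262260. Gzma and Gzmk lay on the minus strand of chromosome 13, between 113093825 and 113225908. Prf1 (61297833 to 61304680) and Gzmm (79689020 to 79695261) lay apart on the plus strand of chromosome 10. The 150 bases before the RefSeq transcript start (GRCm38.p6, minus strand, 5' to 3') are shown for Gzmb, which most killer cells had, and for 4 of its relatives, of which Gzmc was counted in the most cells. Capitals mark the letters TGTGGT (RUNX motif), TGACGTCA (CRE) and TGANTCA (AP-1) on either strand.
Gzmb at chr14:56262335-56262484: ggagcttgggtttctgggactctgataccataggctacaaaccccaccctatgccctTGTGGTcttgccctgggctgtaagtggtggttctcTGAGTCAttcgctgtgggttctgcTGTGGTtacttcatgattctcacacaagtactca
Gzmc at chr14:56234658-56234807: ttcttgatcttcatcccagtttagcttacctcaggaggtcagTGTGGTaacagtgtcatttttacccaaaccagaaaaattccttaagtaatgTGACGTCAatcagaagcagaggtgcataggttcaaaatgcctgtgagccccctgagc
Gzmd at chr14:56132594-56132743: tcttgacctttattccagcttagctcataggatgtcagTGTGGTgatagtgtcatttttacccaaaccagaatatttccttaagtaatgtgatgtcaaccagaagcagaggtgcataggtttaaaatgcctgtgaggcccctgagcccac
Gzmf at chr14:56211408-56211557: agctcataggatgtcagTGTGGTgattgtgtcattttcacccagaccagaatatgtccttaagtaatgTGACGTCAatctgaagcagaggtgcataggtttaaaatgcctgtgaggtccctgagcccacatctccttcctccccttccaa
Gzmg at chr14:56159580-56159729: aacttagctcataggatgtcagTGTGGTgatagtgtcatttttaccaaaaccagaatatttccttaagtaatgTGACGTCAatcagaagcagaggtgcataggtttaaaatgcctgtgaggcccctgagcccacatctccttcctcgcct
The RUNX letters stood in this window in 8 of 10 members, all but Gzmk and Gzmm, and in 8.399% of 32851 promoters of the same length. The CRE letters stood in Gzmc, Gzmf and Gzmg and in 1.36% of promoters, and the AP-1 letters in Gzmb alone and in 4.24%. A match describes letters, not a bound factor. The windows of Gzmd and Gzme were 94.7% identical and those of Gzmf and Gzmg 88.4%, whereas those of Gzmb and Gzmf were 47.8% identical. Transcripts were alike too, with 90.04% identity between Gzmd and Gzme and 87.5% between Gzmf and Gzmg, and 3 of 45 pairs shared a run of 90 bases. These runs lay among Gzmd, Gzme and Gzmg and covered at most 1.46% of the shorter transcript. Gzmf shared no run of 90 bases, but shared runs of 50 bases with Gzmd and Gzmg. Reads from such stretches may not be told apart. The separate values of Gzmd, Gzme, Gzmf and Gzmg are uncertain to an extent that was not tested.

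The WT label held 7382 barcodes and 54556333 mouse UMIs, the KO label 8369 and 103261208. Barcodes with at least 500 mouse genes and at most 10% mitochondrial UMIs numbered 3110 and 6575, with medians of 12522.5 and 11071 UMIs, and held 92375 and 157478 UMIs of the members. Both libraries list 21 barcodes, of which 0 were in a lymphocyte class of both. Levels are given as CPM, a gene's UMIs per 1000000 UMIs of the cells in question. The Cacna1h transcript went against the labels, with 13 UMIs (0.2498 CPM, exact Poisson 95% interval 0.133 to 0.427) with the WT label and 168 (1.67 CPM, 1.42 to 1.94) with the KO label. Cells with tumour markers had 0.436 CPM with the WT label and 0.525 with the KO label. Cells with myeloid markers had 0.0853 with the WT label and 2.92 with the KO label. A 3' read says nothing of a deletion elsewhere in the gene, and the sources used here do not state the deleted stretch. For this reason the groups are named by their labels throughout.

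Cells were sorted into classes by markers that include no member. NK-gated cells had UMIs of Ncr1, Klrb1c or Klre1 and at most 1 Cd3 UMI, CD8-gated cells had Cd3 with Cd8a or Cd8b1, CD4-gated cells Cd3 with Cd4, and dividing lymphocytes were cells of these kinds with at least 3 UMIs of Mki67, Top2a, Birc5, Cdk1 and Ube2c. In the order WT label and KO label, which is kept for every pair of values below, there were 237 and 603 NK-gated, 199 and 322 CD8-gated, 141 and 582 CD4-gated and 158 and 278 dividing cells. Their median depths were 5559 and 6310, 7400 and 8896, 6924 and 7996.5, and 16062.5 and 16991.5 UMIs. NK markers summed to 3058 and 3639 CPM in NK-gated cells, where Cd8a, Cd8b1 and Cd4 were at 0 with the WT label and at most 2.37 CPM each with the KO label. The NK gate also admits type 1 innate lymphoid cells, which carry the same receptors. Myeloid markers stood at 40.96 and 77.9 CPM in NK-gated, 39.9 and 59.7 in CD8-gated, 55.9 and 73.3 in CD4-gated and 34.2 and 50.1 in dividing cells, higher with the KO label in each. Dendritic markers summed to 49.5 and 18.7 CPM over 4 genes in NK-gated cells. Xcr1 was at 27.5 and 0.948 and Flt3 at 12.2 and 1.9, whereas Ccr7, at 9.78 and 13.03, and Cd209a, at 0 and 2.84, were higher with the KO label. The share of NK-gated cells with a dendritic UMI was 5.06% and 4.64%. The part of these markers in the results was not tested.

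Each molecule is counted once in a 3' library whatever the length of its RNA, so levels of different genes are compared as CPM. Gzma was the most abundant member in NK-gated and CD8-gated cells of both libraries. In NK-gated cells with the WT label the order was Gzma (8847 CPM), Gzmc (5051), Gzmb (3038) and Prf1 (711), and with the KO label Gzma (8557), Gzmb (2559), Gzmc (928) and Prf1 (638). Gzmc thus stood above Gzmb in the first library and below it in the second. The members summed to 17840.5 and 12762 CPM in NK-gated cells, a log2 ratio of KO over WT label of -0.48. In CD8-gated cells the sum was 7825 and 11050.2 (log2 ratio 0.50), in CD4-gated cells 1297 and 3018 (1.22) and in dividing cells 13244 and 4429 (-1.58). As summed, the classes did not share a direction. With every cell weighted alike the log2 ratio was 0.0064 in CD8-gated and -0.15 in CD4-gated cells, and with cells thinned to 2000 UMIs 0.036 and -0.056. Both settings give deep cells less weight. Cells outside the 4 classes held 14.5% and 17.7% of member UMIs, mostly in other T cells and in cells with markers of more than 1 type.

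**Figure D1:**
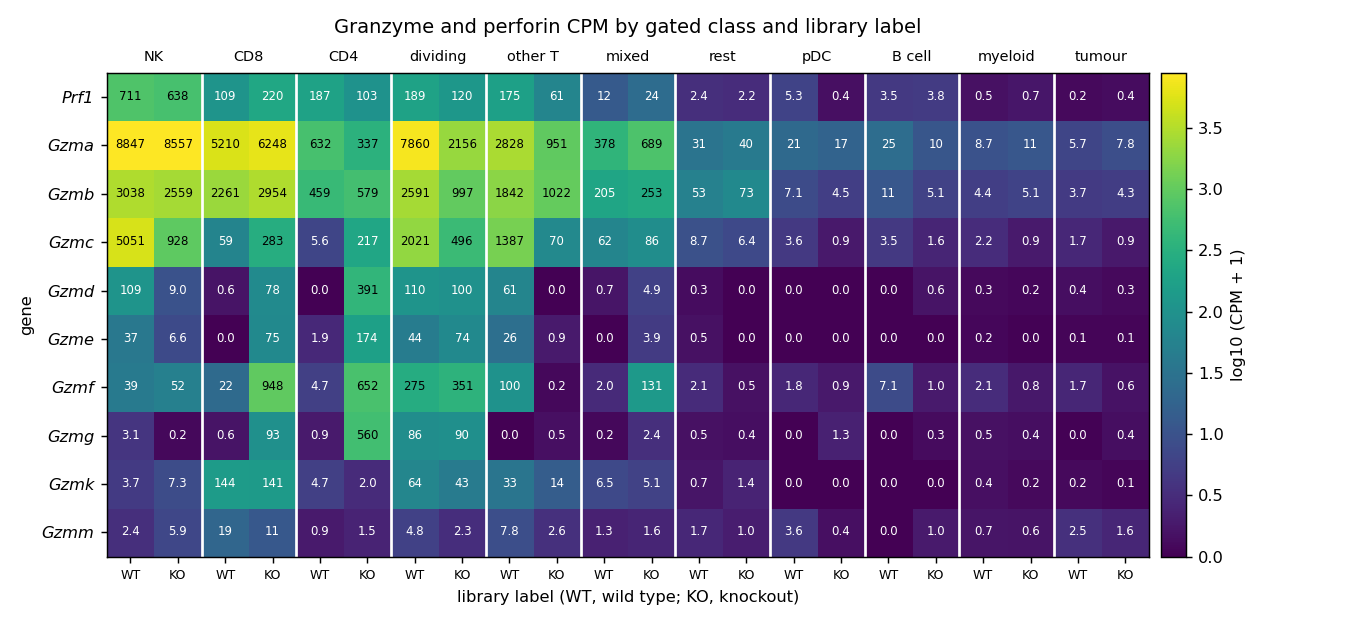
CPM of each member (rows) in each marker-gated class (columns) of both libraries (WT and KO label); colour follows the level on a log scale and the printed number is the level. Gzma, Gzmb and Prf1 fill the NK-gated cells of both libraries, Gzmc there stands at 5051 and 928, and B, myeloid, plasmacytoid dendritic (pDC) and tumour-gated cells are near 0.

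A gene was measured in a class at 100 or more UMIs over both libraries and called higher or lower with the KO label at a 1.5-fold difference, by size alone. In NK-gated cells 6 of 10 members were measured, 0 were higher and 2 lower (Gzmc and Gzmd), where 4.32% higher and 4% lower (8.32% in either direction) was the share among 6552 measured genes. In CD8-gated cells 9 were measured, 6 higher (Prf1 and Gzmc to Gzmg) and 0 lower, against 3.1% higher and 2.88% lower (5.98% in either direction) of 5941 genes. In CD4-gated cells 8 were measured, 5 higher (Gzmc to Gzmg) and 2 lower (Gzma and Prf1), against 4.27% higher and 4.1% lower (8.37% in either direction) of 6999 genes. In dividing cells 9 were measured, 1 higher (Gzme) and 4 lower (Gzma, Gzmb, Gzmc and Prf1), against 5.82% higher and 3.8% lower (9.62% in either direction) of 7664 genes. The median log2 ratio over measured members was -0.20 in NK-gated, 2.25 in CD8-gated, 5.91 in CD4-gated and -0.56 in dividing cells, and that over all measured genes 0.035, -0.060, -0.042 and -0.023. Gzme in CD8-gated and Gzmd in CD4-gated cells had 0 UMIs with the WT label and enter at 3 counts there, which bounds their ratio. Many of these calls rest on few cells, as set out gene by gene.

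**Figure D2:**
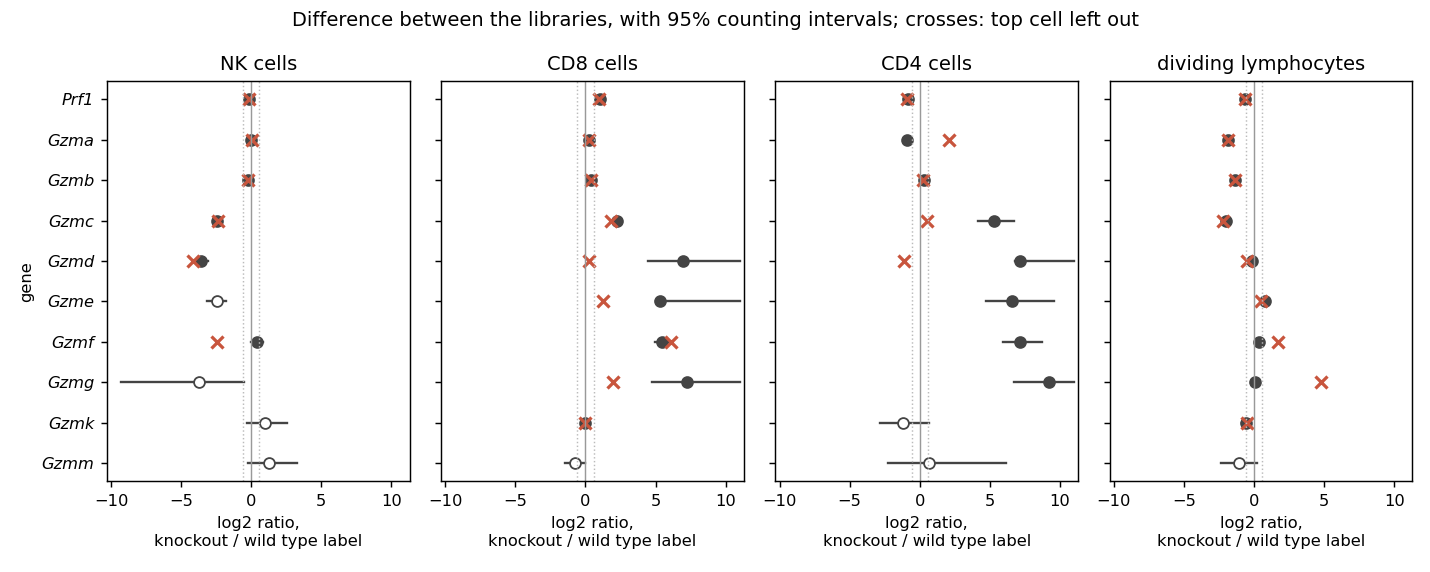
Log2 ratio of CPM, KO over WT label, for each member in the 4 lymphocyte classes; circles are ratios (filled at 100 or more UMIs), lines exact 95% counting intervals (ended at the frame), dotted lines 1.5-fold, and crosses the ratio with the cell richest in that gene left out of each library. Gzmc in NK-gated cells lies at -2.44 and -2.33, whereas Gzmd in CD4-gated cells goes from 7.13 to -1.10.

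Prf1, the pore former, was highest in NK-gated cells. Its level there was 711 CPM (671 to 753) and 638 (614 to 662), a log2 ratio of -0.16 that is under the 1.5-fold limit. The share of cells with a Prf1 UMI was 84.4% and 84.2%, and after every cell was thinned to 2000 UMIs it was 61.4% and 56.9%. Tumour-gated cells, which should lack perforin, had thinned shares of 0% and 0.181%, at median depths of 29588 and 24317.5 UMIs before thinning. Prf1 in NK-gated cells was thus far above the background in both libraries.

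In CD8-gated cells Prf1 was at 109 CPM (93.1 to 126) and 219.6 (204 to 236), a 2.02-fold difference (1.71 to 2.398). The share of positive cells was 39.2% and 52.2%, or 16.7% (11.8% to 22.6%) and 22.05% (17.6% to 26.98%) after thinning, where the intervals overlap. The richest cell held 18.3% of the 721 UMIs with the KO label, and without the top cell of each library the log2 ratio went from 1.02 to 0.97. In CD4-gated cells Prf1 went the other way, at 187 and 103 CPM (log2 ratio -0.87), and 3 cells held 51.2% and 50.1% of its UMIs.

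Gzma, a tryptase, was found in 91.98% and 94.2% of NK-gated cells and in 88.1% and 90.9% after thinning, where tumour-gated cells had 1.08% and 2.17%. Its level was 8847 CPM (8703 to 8992) and 8557 (8469 to 8645), a log2 ratio of -0.048 that turned to 0.078 without the top cell of each library. Over the whole class the libraries were therefore close for Gzma in NK-gated cells. In cells with UMIs of Y-linked genes and no Xist UMI (Y-linked cells) it was at 8926 and 6073 CPM. Without the richest cell of each these levels were 7865 and 5641. Cells with Xist and no Y-linked UMI, all with the KO label, were at 9120.

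In CD8-gated cells Gzma was split between cells. A UMI was seen in 45.2% and 47.2% of them (33.3% and 34.5% thinned), the median cell had none, and the 90th percentile was 22799 and 20713 CPM. The level over the class was 5209.7 and 6248 CPM (log2 ratio 0.26). CD4-gated cells had 632 and 337 CPM, but 1 cell with the WT label held 621 of 678 UMIs. Without the top cell of each library the CD4 log2 ratio turned from -0.91 to 2.06, so the call of Gzma as lower rests on that cell.

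Gzmb, the caspase-activating granzyme, was the member most widely found across classes. It was present in 88.2% and 87.9% of NK-gated, 79.4% and 73.6% of CD8-gated and 38.3% and 33.5% of CD4-gated cells. The level was 3038 and 2559 CPM in NK-gated cells (log2 ratio -0.25, -0.30 to -0.20), 2261 and 2954 in CD8-gated (0.39, 0.33 to 0.44) and 459 and 579 in CD4-gated cells (0.33, 0.20 to 0.47). None of these 3 differences reached 1.5-fold over the whole class. In Y-linked NK-gated cells Gzmb was lower with the KO label, at 3175 and 1418. In Y-linked CD8-gated cells it was higher, at 2315 and 2561. In Y-linked CD4-gated cells it was lower, at 474 and 241, against the direction of the class. In CD8-gated cells the thinned share was 63.6% and 64.3%, and Gzmb without Gzma was seen in 38.2% and 32.3% of cells, against Gzma without Gzmb in 4.02% and 5.901%.

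Within CD4-gated cells Gzmb went with Foxp3, the transcription factor of regulatory T cells. Of the cells with a Foxp3 UMI (36 and 133), 75% and 62.4% had a Gzmb UMI, at 1132 and 1329.7 CPM. Of those without (105 and 449), 25.7% and 24.9% did, at 215 and 331 CPM. Thinned shares were 66.7% (49.03% to 81.4%) and 46.6% (37.9% to 55.5%) with Foxp3 and 18.3% (11.4% to 27.1%) and 14.3% (11.1% to 17.9%) without, and in both libraries these intervals lie apart. Prf1 did not share a direction between the libraries. With the WT label it was at 73.4 CPM in cells with Foxp3 and 229 in those without, and with the KO label at 127 and 94.6. Over the whole CD4 class 3 cells held 51.2% and 50.1% of its UMIs.

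**Figure D3:**
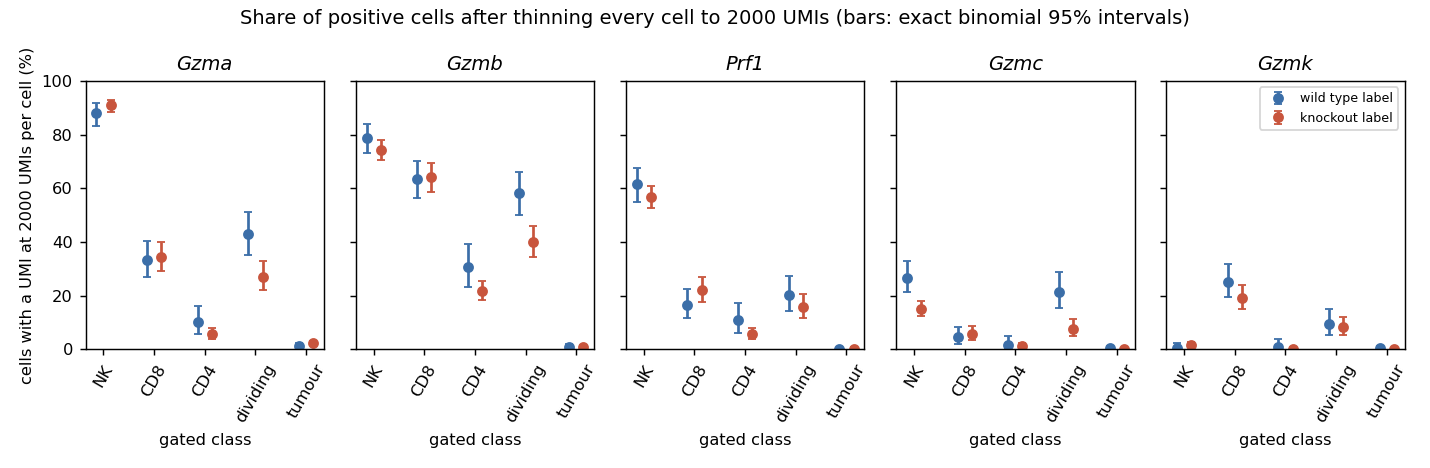
Share of cells with a UMI of Gzma, Gzmb, Prf1, Gzmc and Gzmk after every cell is thinned to 2000 UMIs, by class and label; points are shares and bars exact binomial 95% intervals. The bars of the libraries lie apart for Gzmc in NK-gated cells (26.7% and 14.98%) and for Gzma, Gzmb and Gzmc in dividing cells, and tumour-gated cells give the background. Bars cover the sampling of cells within each single library and not a spread between libraries.

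Gzmc, a granzyme known in mice from activated killer cells and from some type 1 innate lymphoid cells, separated the libraries in NK-gated cells. Its level was 5051 CPM (4943 to 5161) and 928 (899 to 957), 5.44-fold lower with the KO label (5.24 to 5.66). Both the share of cells and the amount in them differed: 83 of 237 cells (35.02%) and 129 of 603 (21.4%) had a UMI, with a median of 11 and 7 UMIs in them. The thinned shares were 26.7% (21.2% to 32.8%) and 14.98% (12.2% to 18.1%), against 0.464% and 0.0906% in tumour-gated cells. The counts were uneven, with 6 and 11 cells carrying 50% of the UMIs and a top cell with 16.98% and 9.04%. The log2 ratio was -2.44, and over the alternatives of filter, gate, scaling, depth and cells it lay between -2.15 and -3.70.

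NK-gated cells with Gzmc also had more Gzmb. With the WT label Gzmb stood at 4175 CPM in the 83 Gzmc-positive cells and at 2002 in the 154 others, and with the KO label at 4042 in 129 and 1870.1 in 474 cells. Prf1 was nearly level, at 729 and 695 in the first library and 651 and 632 in the second. The positive cells were deeper, with medians of 8205 against 4743.5 UMIs and 9124 against 5714.5, and the part of depth was not tested. Zeb2, a factor of NK maturation, was at 129.6 against 276 CPM with the WT label and 127 against 332 with the KO label. Klra8, the Ly49H receptor, was at 290 against 437 CPM with the WT label and 279 against 499 with the KO label. Eomes, a factor that defines NK cells, was lower with Gzmc in both libraries too, at 155 against 222 CPM with the WT label and 171 against 264 with the KO label. Il2ra, a chain of the interleukin-2 receptor, was at 33.4 against 8.18 CPM with the WT label and 29.9 against 4.51 with the KO label, from 26, 7, 40 and 13 UMIs in that order, fewer in all than the minimum for a call. Ncr1 was at 402 against 399 CPM with the WT label and 359 against 414 with the KO label. These 5 genes were picked after their values were seen, from the NK markers and regulators.

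Gzmc was found in a small share of T cells, and its direction differed between T cell classes. CD8-gated cells had 59.5 and 283 CPM (log2 ratio 2.25), yet the share of positive cells was 11.1% and 8.39%. One cell held 502 of the 930 UMIs with the KO label, and without the top cell of each library the log2 ratio was 1.83. In CD4-gated cells 1154 of 1183 Gzmc UMIs with the KO label were in 1 cell, against 6 UMIs in all with the WT label. In other T cells, which passed neither the CD8 nor the CD4 gate (166 and 462 cells, dividing ones included), Gzmc was lower with the KO label, at 1387 and 70.2 CPM (log2 ratio -4.30), from 18 and 30 cells with a UMI.

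Gzmd, Gzme, Gzmf and Gzmg, the closest relatives, were counted in a handful of cells. Summed over these 4 genes, 13 cells with at least 100 UMIs held 97.1% of the 19156 UMIs of all kept cells with the KO label, and 3 such cells held 60.9% of the 2123 with the WT label. The 13 cells were 1 NK-gated, 4 CD8-gated, 1 CD4-gated, 3 dividing and 4 outside these classes. All 13 had UMIs of Gzmb, Gzmc and Prf1, and 9 of them of Gzma. They were deep, with a median of 33816 UMIs, and 3 of the 13 were called as doublets, against 0 of the 3 with the WT label.

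A single CD4-gated cell with the KO label carried the largest part of this RNA. Of its 90997 UMIs, 11365 (12.5%) were from the members: 3545 of Gzmf, 3050 of Gzmg, 2122 of Gzmd, 1154 of Gzmc, 946 of Gzme, 401 of Gzmb and 147 of Prf1, with 0 of Gzma. It had 43 Cd3e UMIs, 0 of Cd8a and 1 of Cd4, so its place in the CD4 class rests on that molecule. It held 99.6% of the 10859 UMIs of Gzmc to Gzmg in the class. Without the top cell of each library the log2 ratio of these 5 genes turned from 7.26 to -0.26, and that of all 10 members went from 1.22 to 0.40. With at least 2 Cd4 UMIs required, the ratio of all 10 was -0.64. The higher sum in CD4-gated cells did not pass 1.5-fold when the top cell of each library was left out.

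A CD8-gated cell with the same label came next, with 60438 UMIs and 6235 member UMIs, among them 2440 of Gzma and 1993 of Gzmf. It held 97.3% of the Gzmd and 64.02% of the Gzmf UMIs in its class. CD8-gated cells had 22.1 and 948 CPM of Gzmf, a log2 ratio of 5.42. The share of cells with Gzmf was 4.02% (1.75% to 7.77%) and 4.04% (2.17% to 6.805%), with medians of 1 and 7 UMIs in positive cells. The shares were close, and the positive cells with the KO label had more of the gene. Gzme had 0 UMIs with the WT label, which allows up to 2.26 CPM by the exact interval, and 245 with the KO label, of which 231 were in 1 cell. Of the 6 calls in CD8-gated cells, 3 were made without the top cell of each library, and 2 with cells thinned to 2000 UMIs.

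In NK-gated cells Gzmd was at 109 CPM (179 UMIs in 6 cells) and 9.002 (38 UMIs in 5 cells). Gzme was at 36.7 and 6.63 CPM and Gzmg at 3.06 and 0.237, both under the minimum of UMIs for a call. Gzmf was at 39.1 and 51.6, but 1 cell held 210 of the 218 UMIs with the KO label, and without the top cell of each library its log2 ratio turned from 0.40 to -2.46.

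**Figure D4:**
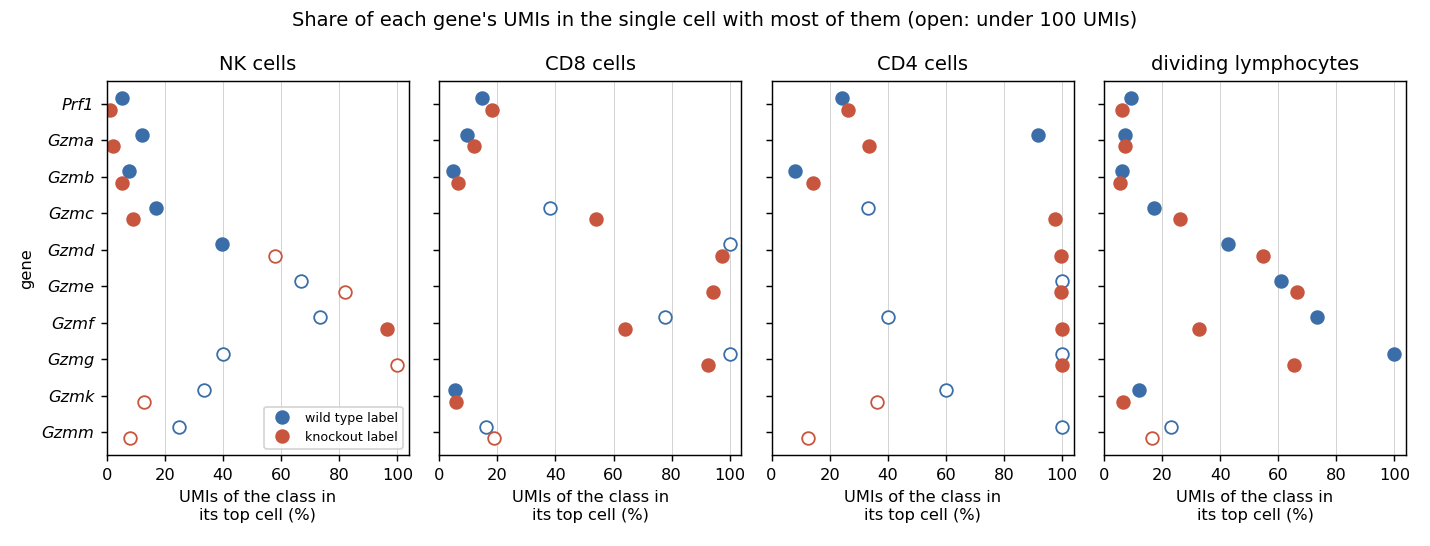
Percent of each member's UMIs in a class that sit in the cell with most of them, by class and label; open circles are sums under 100 UMIs. Gzma, Gzmb and Prf1 in NK-gated cells have top cells of at most 11.96%, whereas those of Gzmd to Gzmg in CD4-gated cells with the KO label are at 99.7% or more.

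Gzmk, a tryptase typical of CD8 effector memory cells, was found mainly in CD8-gated and dividing cells. CD8-gated cells had 144 CPM (126 to 164) and 141 (128 to 154), a log2 ratio of -0.031, -0.26 to 0.20. It was found in 45.2% and 42.5% of them (25.3% and 19.3% thinned). NK-gated cells had 3.67 and 7.34 CPM, from 6 and 31 UMIs, and CD4-gated cells 4.66 and 2.02. Among CD8-gated cells with Gzmk, 63.3% and 64.2% also had Gzma and 91.1% and 86.1% Gzmb.

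Gzmm, the methionine-cutting granzyme, was rare. CD8-gated cells had 19.01 and 11.27 CPM, from 31 and 37 UMIs, and NK-gated cells 2.45 and 5.92, from 4 and 25. Neither class reached 100 UMIs, so no call was made. Tumour-gated cells had 2.47 and 1.64 CPM, close to that in NK-gated cells with the WT label, and myeloid-gated cells 0.683 and 0.623.

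Dividing lymphocytes had the largest drop in the summed level among the 4 classes. Gzma was at 7859.6 and 2156 CPM (log2 ratio -1.87), Gzmb at 2591 and 997 (-1.38), Gzmc at 2021 and 496 (-2.03) and Prf1 at 189 and 120.4 (-0.65). Thinned shares were 43.04% (35.2% to 51.1%) and 27.1% (21.9% to 32.7%) for Gzma, 58.2% (50.1% to 66.01%) and 40.1% (34.3% to 46.1%) for Gzmb and 21.5% (15.4% to 28.8%) and 7.58% (4.75% to 11.4%) for Gzmc. These intervals lie apart, but they cover the sampling of cells within each single library and not a spread between libraries. Gzmd, Gzmf, Gzmg and Gzmk were under 1.5-fold over the class. Gzme was higher, at 43.8 and 73.6 CPM, a call that turned to -0.85 on the log2 scale without called doublets.

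The makeup of the dividing class differed. NK-lineage cells were 27 of 158 (17.1%) and 18 of 278 (6.47%), CD8-lineage cells 51.3% and 42.1%, and CD4-lineage cells 31.6% and 51.4%. Within lineages, Gzma was at 12366 and 4251 CPM in dividing NK and 9536 and 4230.5 in dividing CD8 cells, lower with the KO label in both. Gzmb was at 5922 and 1174 in dividing NK and 2370.3 and 1907 in dividing CD8 cells. Gzmc was at 8189.7 and 3533 in dividing NK cells, lower with the KO label, at 528 and 439 in dividing CD8 cells, under 1.5-fold, and at 60.9 and 249.7 in dividing CD4 cells, higher, with 676 of the 692 UMIs there in 1 cell. As summed, the lineages did not share a direction for Gzmc, nor for Gzmf, at 953 and 0 in dividing NK and 139 and 569 in dividing CD8 cells. With the WT label 1 cell held 542 of the 543 Gzmf UMIs in dividing NK cells. With the KO label 1 cell held 578 and another 531 of the 1233 in dividing CD8 cells. For both genes the difference in direction thus rests on single cells. Prf1 in dividing CD8 cells was at 109 and 163, just under 1.5-fold, and the thinned shares of Gzma there, 51.9% (40.5% to 63.1%) and 44.4% (35.3% to 53.9%), overlap.

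The KO label also held mainly 2 kinds of cells by sex-linked RNA, read from Xist and from Kdm5d, Eif2s3y, Uty and Ddx3y of the Y chromosome. Cells with UMIs of both or of neither were left out of the 2 kinds. Among NK-gated cells with the WT label 55 had neither, at a median of 4421 UMIs against 5907 in Y-linked cells. Gzmc stood at 1744 CPM in these 55 against 5747 in Y-linked cells, Gzma at 8468 against 8926 and Prf1 at 784 against 696. How far this split moves the levels was not tested. With the WT label 0 lymphocytes of these classes had a Xist UMI, while with the KO label 438 NK-gated cells had Xist and no Y-linked UMI and 72 had Y-linked UMIs and no Xist. Gzmc was lower in both kinds, with and without the richest cell, at 443 (384 to 508) CPM in Y-linked and 1067 (1032 to 1103) in Xist cells, against 5747 (5619.7 to 5876) in the 182 Y-linked NK-gated cells with the WT label. Without the richest cell of each these levels were 156, 962 and 4813. Gzmb was at 1418 in Y-linked and 2827 in Xist cells, against 3175. With Y-linked cells alone the log2 ratio of all members in NK-gated cells was -1.13.

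In CD8-gated cells Prf1 was at 107 CPM in Y-linked cells with the WT label, and at 306 in 91 Y-linked and 177 in 191 Xist cells with the KO label, or 89.8, 278 and 114 without the richest cell of each. Gzmc was at 63.7, 42.5 and 379.8 in the same order. Of its 757 UMIs in Xist cells, 502 were in 1 cell, and without the richest cell of each kind the levels were 38.4, 20.6 and 132. Gzmf was at 25.2, 109.5 and 1481, or 5.66, 5.72 and 497 without those cells. The members summed to 739, 352 and 3529 in CD4-gated cells, where the richest Xist cell held 11365 of 15360 UMIs and the level without it was 937. In dividing cells the members summed to 12828, 4158 and 3922. Another 14 dividing cells with the KO label had both Xist and Y-linked UMIs and stood at 9859. These 14 held 1308 of the 2582 Gzmc and 457 of the 518 Gzmd UMIs of the class. Cells with both numbered 3 in NK-gated, 13 in CD8-gated and 14 in CD4-gated cells. Whether they are doublets was not tested. Genotype and library cannot be told apart here. Lymphocytes with Xist were seen with the KO label only, and the part of sex in the differences was not tested.

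**Figure D5:**
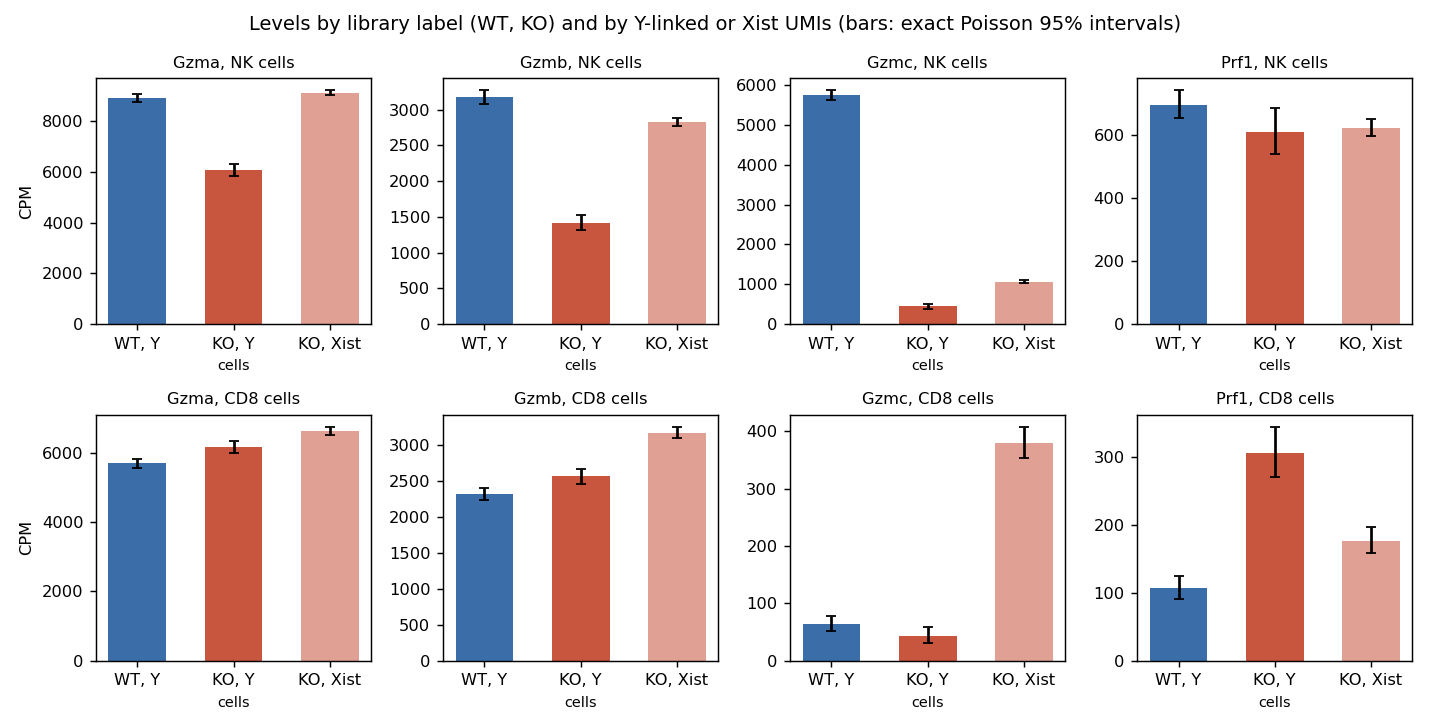
CPM of Gzma, Gzmb, Gzmc and Prf1 in NK-gated and CD8-gated cells, split into Y-linked cells (WT label and KO label) and Xist cells (KO label); error bars are exact Poisson 95% intervals. Gzmc in NK-gated cells is low in both kinds of cell with the KO label, whereas in CD8-gated cells it stands at 379.8 in the Xist and 42.5 in the Y-linked cells, the first with 502 of 757 UMIs in 1 cell.

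Most NK-gated cells carried several members at once. Gzma and Gzmb were seen together in 82.7% and 84.7% of them, and 80.2% and 79.3% had 3 or more members, or 59.3% and 49.7% after thinning. Across NK-gated cells, Pearson's r of log counts per 10000, averaged over the libraries, was 0.50 between Gzma and Prf1, 0.48 between Gzma and Gzmb and 0.36 between Gzmb and Prf1. It was 0.27 between Gzmc and Gzmb, -0.047 between Gzmc and Gzma and 0.037 between Gzmc and Prf1. In CD8-gated cells r was 0.50 between Gzma and Gzmb and 0.35 between Gzma and Gzmk. These values describe 237 and 603 NK-gated and 199 and 322 CD8-gated cells, which share their library and vary in depth.

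With the members left out, and among 6221 genes seen in at least 10% of NK-gated cells in each library, those most like Gzmb were Fcer1g (mean r 0.32), Irf8 (0.31), Nkg7 (0.30), Rrp1b (0.25) and Fndc3a (0.24). Those most like Gzmc were Ifitm2 (0.49), AA467197 (0.45), Thy1 (0.44), Inpp4b (0.41) and Rpl28 (0.39). Gzma (0.39) and Prf1 (0.33) had Nkg7, a granule membrane protein, as the most alike gene that is no member. Among the genes compared in CD8-gated cells, members again left out, Gzmb was most like Nkg7 (0.50), Itga1 (0.48), an integrin of resident T cells, and S100a6 (0.47). Gzmk was most like Ccr2 (0.37) and Ccl5 (0.34), and Prf1 like Id2 (0.35) and Havcr2 (0.32), which encodes the checkpoint receptor TIM-3. Gzma was most like Ifitm1 (0.45) and Gzmc like AA467197 (0.28).

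Of the genes that load, move and release granules, few passed 1.5-fold. All 15 were measured in NK-gated cells and 0 were higher or lower at 1.5-fold, where 8.32% of all measured genes were, with a median log2 ratio of 0.17 against 0.035 for all measured genes. Nkg7 was at 1953 and 2039 CPM and Srgn, the proteoglycan that packs granzymes, at 1547 and 1569.9. The 3 with the largest log2 ratios were Igf2r (0.49), Stx11 (0.48) and Lamp2 (0.41). In CD8-gated cells 14 were measured and 1 was higher, against 3.1% of all measured genes: Lamp2, at 39.9 and 65.2 CPM. In CD4-gated cells all 15 were measured and 3 were lower, against 4.1%. They were Rab27a at 155 and 102, Lyst at 196 and 126 and Igf2r at 103 and 65.9. In dividing cells 2 of 15 were higher, against 5.82%. They were Stx11, a syntaxin of granule release, at 61.6 and 124, and Lamp2 at 36.8 and 55.3.

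Of 10 genes that process or inhibit granzymes, 9 were measured in NK-gated cells and 2 were higher, against 4.32% of all measured genes: Ctsl, a lysosomal protease, at 14.7 and 26.1 CPM, and Serpinb6a, a serpin, at 24.5 and 43.4. Serpinb9, the inhibitor of granzyme B, was at 548 and 583, and Serpinb9b at 39.1 and 27.7. In CD8-gated cells 7 were measured and 0 were called, with Cst7, an inhibitor of cathepsins, at 135 and 200.4. In CD4-gated cells 9 were measured and 1 was higher, against 4.27%: the cathepsin Ctsw at 98.8 and 165. There 2 were lower, against 4.1%: Ctsl at 76.4 and 9.55 and Serpinb6b at 200.4 and 96.3. In dividing cells 7 were measured, 1 higher and 1 lower, against 5.82% and 3.8%. Of 19 regulators, 15 were measured in NK-gated cells and 1 was higher, against 4.32% of all measured genes. It was Il18r1, a chain of the interleukin-18 receptor, at 225 and 435. In CD8-gated cells 18 were measured and 1 was higher, against 3.1%: Nfil3, at 34.9 and 54.8, with Il18r1 at 183 and 129. In CD4-gated cells 18 were measured, 1 higher and 0 lower, against 4.27% and 4.1%. In dividing cells all 19 were measured, 5 higher and 1 lower, against 5.82% and 3.8%.

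Among 9 other killing molecules, 8 were measured in NK-gated cells and 1 was higher, against 4.32% of all measured genes. It was the chemokine Ccl5, at 2353 and 4597 CPM, and the median log2 ratio of the list was 0.24. Fasl, the ligand of the death receptor Fas, was at 146 and 205, and Tnfsf10 (TRAIL) at 43.4 and 64.7. In CD8-gated cells 9 were measured and 2 were higher, against 3.1%: Ccl4 at 788 and 1532 and Ccl3 at 238 and 377, with Ccl5 at 4931 and 7151. In CD4-gated cells 9 were measured and 1 was higher, against 4.27%: Xcl1 at 39.1 and 72.4. There 2 were lower, against 4.1%: Ifng (interferon gamma) at 1918 and 934 and Ccl3 at 1993 and 898. In dividing cells 9 were measured, 2 higher and 2 lower, against 5.82% and 3.8%. Of 10 chromosome 14 neighbours and relatives, Cma1 alone was measured in NK-gated cells, at 12.2 and 21.6 CPM, and 0 in CD8-gated cells.

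Tumour-gated cells, taken as background here for the members other than Gzmm, had 16.3 and 16.4 CPM of all members together. There 3 were measured, 0 higher and 1 lower (Gzmm), where 14.6% higher and 6.23% lower (20.8% in either direction) was the share among 12946 genes. Gzma made up 34.7% and 47.6% of member UMIs in tumour-gated cells and Gzmb 22.6% and 26%. Gzmc made up 10.7% and 5.2% there, and 28.3% and 7.27% in NK-gated cells. Gzmm made up 15.1% and 10%, against 0.0137% and 0.0464% in NK-gated cells. Barcodes that failed the filter had 642 and 298 CPM of members. The human counterparts listed in the same matrices had 1 UMI in all, of GZMA.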

How the data were processed

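Each sample is a 10x 3' v3.1 single-cell library of dissociated brain with tumour, per the labels' protocols. The deposited values are raw UMI counts per gene and barcode, which the authors made with Cell Ranger 7.1.0 on mm10. Seurat 5.0.2 is named as well, per the submitters' processing notes, without its role. Further values were computed with scanpy 1.11.5, pandas 2.3.3, scipy 1.17.1 and numpy 2.4.6 in Python 3.11.15, and plotted with matplotlib 3.10.9.

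Mouse rows were used, in cells with at least 500 genes and at most 10% mitochondrial UMIs. T cells had 2 or more Cd3d, Cd3e and Cd3g UMIs, CD8 cells also 2 or more Cd8a and Cd8b1 and no Cd4, CD4 cells 1 or more Cd4 and at most 1 of Cd8a and Cd8b1, and NK cells 2 or more Ncr1, Klrb1c and Klre1 UMIs. Cells that also passed a myeloid (10 UMIs), B cell (3), plasmacytoid dendritic (3) or tumour (5) gate were set apart as mixed. Doublets were kept; Scrublet called 77 cells with the WT label, the expected number, since its automatic threshold marked 0.289%, and 164 (2.49%) with the KO label, and removing them is an alternative.

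UMIs were summed per class and library and scaled to CPM. Ratios carry exact intervals conditional on the summed counts, levels exact Poisson and shares exact binomial (Clopper-Pearson) intervals, all at 95%. Cells below 2000 UMIs were left out of thinned shares, at most 1 and 9 in a lymphocyte class. The ratio interval was tried only on Poisson counts simulated under the model it assumes. Those counts lack the crowding of UMIs into single cells seen here, so that trial cannot decide how well the interval covers these data. All members are named, list genes came from the 2 with most UMIs and the 3 with the largest ratio in NK-gated and CD8-gated cells, and the 5 genes most like a member from the mean r. Some genes that these rules name are not reported here. Members and lists were chosen with earlier results of these data known. Alternatives changed the filter, gates, scaling, weighting, depth and sex-linked RNA; leaving out the top cell or top 3 cells of the quantity in question, and requiring 2 Cd4 UMIs, were chosen after seeing the data.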

Additional observations from a re-analysis of the deposited data

Results flagged for a closer look

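Several members were called in opposite directions in different classes, and the difference between classes was not tested. The log2 ratio of Gzmc, KO over WT label, was -2.44 in NK-gated and -2.03 in dividing cells, and 2.25 in CD8-gated and 5.28 in CD4-gated cells. That of Gzmd was -3.60 in NK-gated, 6.98 in CD8-gated cells, from 1 UMI with the WT label (interval 4.49 to 12.29), and 7.13 in CD4-gated cells, the last a bound, since Gzmd had 0 UMIs there with the WT label. Prf1 was at 1.02 in CD8-gated, -0.87 in CD4-gated and -0.65 in dividing cells. The members together were at 1.22 in CD4-gated and -1.58 in dividing cells. In CD4-gated cells 1 cell held 97.5% of the Gzmc and 99.7% of the Gzmd UMIs with the KO label.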

How the results depend on the processing

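Values are log2 ratios of the 10 members together, in the order NK-gated, CD8-gated, CD4-gated and dividing, against -0.48, 0.50, 1.22 and -1.58. Of 65 such values 61 kept their sign and 4 reversed. Of those that kept it, 24 lay within the counting interval of the main value and 37 outside it. With at least 1000 genes and at most 5% mitochondrial UMIs the dividing value was -1.61. Stricter gates gave 1.12 (CD4) and -1.66 (dividing), looser gates -0.45 (NK), 1.14 (CD4) and -1.42 (dividing), and mixed cells kept -0.35, 0.55, 1.07 and -1.62. Without called doublets the values were -0.55 (NK) and -1.71 (dividing), with 5 division UMIs 0.37 (CD8) and 1.13 (CD4), with median-of-ratios scaling -0.52 (NK) and 0.56 (CD8), and without mitochondrial and ribosomal protein genes -0.51 (NK). Every cell weighted alike gave -0.21, 0.0064, -0.15 and -1.43, and cells thinned to 2000 UMIs -0.21, 0.036, -0.056 and -1.44. Y-linked cells of both libraries gave -1.13, 0.16, -1.07 and -1.63, and Xist cells with the KO label -0.38, 0.66, 1.44 and -1.76. Leaving out the top cell gave -0.40 (NK), 0.36 (CD8) and 0.40 (CD4), the top 3 cells -0.29, 0.28, 0.21 and -1.67, and 2 Cd4 UMIs -0.64 (CD4).

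Of 498 values of single members 13 reversed a call. Gzme in dividing cells went from 0.75 to -0.85 without called doublets, -0.35 with cells weighted alike, -0.044 thinned, -6.32 in Xist cells and -1.69 without the top 3 cells. In Y-linked cells Gzmc in CD8-gated cells was at -0.59, and in CD4-gated cells Gzmc was at -0.60, Gzmf at -1.93 and Gzmc to Gzmg together at -1.34. In CD4-gated cells, leaving out the top cell gave -0.26 for Gzmc to Gzmg, 2.06 for Gzma and -1.10 for Gzmd, the top 3 cells -0.35 for Gzmc to Gzmg and 1.497 for Gzma, and 2 Cd4 UMIs -0.67 for Gzmc to Gzmg, -0.24 for Gzmc and -1.41 for Gzmd. Both Gzmd values, counted among the 13, enter 0 UMIs with the WT label as 3 counts. They are bounds, and no reversal was measured for Gzmd. Members called higher in CD8-gated cells went from 6 to 2 thinned, 2 in Y-linked cells and 3 without the top cell, those in CD4-gated cells from 5 to 0, 0 and 1, and members lower in NK-gated cells from 2 to 1 thinned, 3 in Y-linked cells and 4 with no minimum of UMIs. Members lower in dividing cells went from 4 to 7 without called doublets and 9 in Xist cells. The cause was not tested, beyond the share of UMIs that the left-out cells held. No paired analysis was possible because each group has 1 library.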
